A study of Arabidopsis thaliana with 8 samples.

Results

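The mitochondrial genome of Arabidopsis thaliana was represented by 81 loci, all those whose identifier begins with ATMG, out of 26547 loci with a read in any of 8 RNA-seq libraries. Reads of several transcript models of a locus were summed. Of the 81 loci, 21 were matched to a protein of known product and 5 carry ribosomal RNA. The other 55, called other reading frames, were not matched to a single product here, and some may encode known proteins. The libraries compare Col-0, the wild type, with lsm8-1, a mutant of LSM8, a core subunit of the nuclear LSM complex that binds U6, an RNA component of the spliceosome. All plants were 2 weeks old, grown in long days and labelled as leaf tissue. In the cold experiment both genotypes grew in soil and were sampled at 20 °C, under 90 µmol m-2 s-1 of light, or after 24 h at 4 °C, under 40 µmol m-2 s-1, so that temperature and light changed together. In the salt experiment seedlings of either genotype stayed on 0.5X GM plates or spent their last 10 h on plates with 150 mM NaCl, all under 90 µmol m-2 s-1. Each of the 8 groups has 1 library, whether it pooled plants is not stated, and there is no replicate from which a spread within a group could be had.

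Plant mitochondria carry their own genome, which encodes the ribosomal RNAs of the mitochondrial ribosome, a few of its proteins and core subunits of the respiratory chain. The remaining subunits, the RNA polymerases and nearly all factors that process mitochondrial RNA come from nuclear genes. In plant mitochondria a poly(A) tail marks an RNA for decay, so that a library prepared from polyadenylated RNA holds a small and selected share of the mitochondrial transcripts. Whether these libraries were selected for poly(A) is not stated in the labels.

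The libraries held 33.4 to 45.9 M reads each, and LSM8 itself had fewer reads in lsm8-1 than in Col-0 in each condition. Scaled to the library total, in CPM, Col-0 stood at 13.1 and lsm8-1 at 4.49 at 20 °C. The pair stood at 39.6 against 17.9 at 4 °C, at 8.04 against 1.52 on GM and at 6.13 against 0.852 on NaCl. Of 8 root markers, 1 reached 5 CPM in each soil library, while 8, 7, 6 and 8 did so on the plates (Col-0 and lsm8-1 on GM, then on NaCl). Of the 8 root markers, 1 to 4 had no read in a soil library, and none lacked reads on the plates. All 5 leaf markers reached 5 CPM in every library. The tissue label was therefore not borne out as leaf alone for the plate libraries.

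Most mitochondrial loci were covered thinly. Between 59 and 70 of the 81 loci were listed in a soil library and between 44 and 54 in a plate library. Only 31 were listed in all 8, and 32 never reached 10 reads. In 14 loci a library reached 100 reads, and these 14 comprise 7 of the 21 protein loci, 3 of the 55 other reading frames and loci with ribosomal RNA.

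Nuclear chromosome 2 of Col-0 holds a copy of most of the mitochondrial genome, and the tables count uniquely placed reads. Of 33 mitochondrial protein genes in RefSeq (assembly TAIR10.1), 22 had fewer than 10% of their 50-base words unique in the genome, 6 had more than 90% and 5 lay between. The read length is not stated, so the word length of 50 is only a guide. The 6 were rps3, nad9, ccmB, cox1, nad4L and atp4, with 92.6% of words unique in rps3 and 100% in each of the other five. The genes of the large, small and 5S ribosomal RNA, rrn26, rrn18 and rrn5, had 100%, 99.6% and 100%. Of the 41 loci listed for known products, 10 had no entry in the tables used here. They include cob, the cytochrome b of complex III, and rpl5, rps4, rps7, rps12, nad3, atp8 and ccmC. All of these had 0% unique words, and their levels are not analysed here.

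The ribosomal RNA genes were laid out differently in the tables of the experiments. On the plates the small-subunit gene rrn18 (ATMG01390), the 5S gene rrn5 (ATMG01380) and ATMG00020 stood as loci of their own. ATMG00020, 2568 bases long, was taken as the gene of the large-subunit 26S rRNA, as the only rRNA gene left once rrn18 and rrn5 had been matched by length. Its length does not itself match, since rrn26 has 3169 bases in RefSeq. In the soil tables these loci were not listed, but ATMG01370 was 2053 bases longer than on the plates, the summed length of rrn18 and rrn5. ATMG00010 was listed in soil only, at 3030 bases, 462 more than ATMG00020. RefSeq notes 2 reading frames of 462 bases. ATMG00010 has no plate entry that would give its own length, so this match is weaker than that of ATMG01370. Between 80.5% and 86.5% of those 3030 bases were covered by reads. ATMG01370, ATMG01380 and ATMG01390 are therefore given together as the small rRNA unit. ATMG00010 and ATMG00020 are given together as the large rRNA unit, which is inferred and was not checked by an independent length.

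Mitochondrial reads made up a small share of every library, and the share differed most between the genotypes on the plates. At 20 °C the mitochondrial share was 0.0367% of reads for Col-0 and 0.0276% for lsm8-1, and at 4 °C it was 0.0309% and 0.0300%. On GM it was 0.0225% in Col-0 and 0.0791% in lsm8-1, and on NaCl it was 0.0227% and 0.113%. Both lsm8-1 plate libraries thus stood above all other libraries, whereas in soil the lsm8-1 value lay below that of Col-0 at 20 °C and close to it at 4 °C.

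As ratios of shares, lsm8-1 to Col-0, these values came to 0.752 at 20 °C (95% interval 0.735 to 0.770), 0.969 at 4 °C (0.946 to 0.992), 3.51 on GM (3.42 to 3.60) and 4.97 on NaCl (4.85 to 5.10). Intervals on ratios are exact (Clopper-Pearson), rest on read counts and cover counting error only, not the variation between plants. The median ratio over single genes was 1.11, 1.06, 0.911 and 0.915 in the same order, on the same scale of library totals. It was taken over the 18721 to 20585 genes with reads in both libraries and 20 or more in at least 1 of them. Over the 4 pairs the mean log2 ratio was 0.92, with p = 0.5 in a two-sided exact permutation test that flips the sign within pairs and cannot go below 0.125 with 4 pairs. In bulk tissue, fewer cells of a type and less RNA per cell cannot be told apart.

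**Figure D1:**
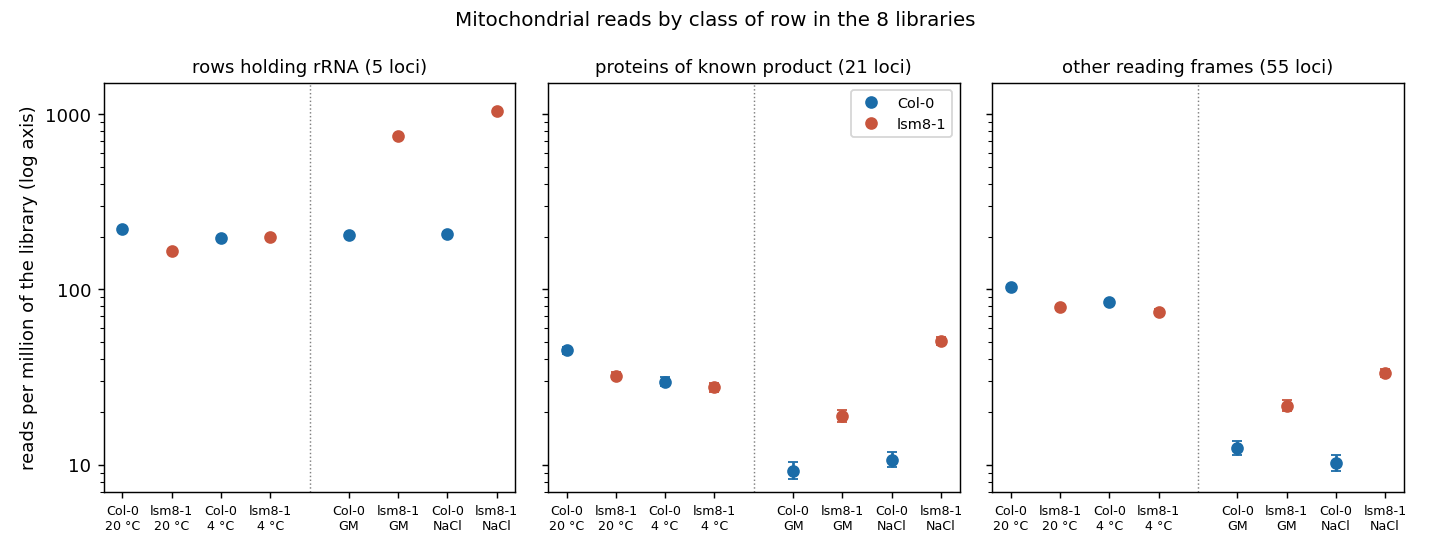
CPM of each library (log axis, the same in all panels) for the 5 mitochondrial loci with ribosomal RNA, the 21 protein loci of known product and the 55 other reading frames, with 95% Wilson intervals for counting error. Points are single libraries, and the dotted line parts the soil from the plate experiment, whose tables were counted differently. In each panel both lsm8-1 plate libraries lie above both Col-0 plate libraries.

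Ribosomal RNA carried most of the mitochondrial reads and most of the difference on the plates. Loci with rRNA held 59.7% to 65.9% of the mitochondrial reads in the soil libraries and 90.4% to 94.9% in the plate libraries. On GM rrn18 (ATMG01390) had 2754 reads in the wild type and 14396 in the mutant, and on NaCl 2926 and 17932. ATMG00020 had 4020 and 10747 reads on GM, and 4044 and 17615 on NaCl. The values of the mutant were above those of Col-0 for both genes on both media, by 5.21-fold (5.002 to 5.43) and 6.12-fold (5.88 to 6.36) for rrn18 and by 2.66-fold (2.57 to 2.76) and 4.35-fold (4.20 to 4.50) for ATMG00020.

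The 336 bases of ATMG01370, which on the plates were counted apart from the rRNA genes, were not higher in lsm8-1. On GM this locus had 33 reads in the wild type and 19 in the mutant (ratio 0.574, 0.308 to 1.04), and on NaCl 31 and 15 (0.483, 0.242 to 0.922). RefSeq notes 3 reading frames of that length, and 1 of them lies 9 bases from rrn5 on the same strand.

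In soil the rRNA units of lsm8-1 did not exceed those of Col-0 except for the large unit at 4 °C. At 20 °C the large rRNA unit had 4569 reads in the wild type and 3618 in the mutant, a ratio of 0.762 (0.730 to 0.797), and at 4 °C 2993 and 3754, a ratio of 1.25 (1.19 to 1.32). The small unit had 5122 and 3943 reads at 20 °C, a ratio of 0.741 (0.711 to 0.773), and 5966 and 5317 at 4 °C, a ratio of 0.891 (0.858 to 0.925). Reads of the small unit per read of the large unit were 1.12, 1.09, 1.99 and 1.42 in soil (Col-0 and lsm8-1 at 20 °C, then at 4 °C) and 0.695, 1.34, 0.732 and 1.02 on the plates. Within the organelle the small unit thus took more of the rRNA reads in lsm8-1 than in Col-0 on both media and fewer at 4 °C, while at 20 °C the intervals of the genotype ratio overlap between the units.

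Other RNA classes were also higher in the lsm8-1 plate libraries. Nuclear rRNA, small nuclear RNA (snRNA) and small nucleolar RNA (snoRNA), which as a rule carry no long poly(A) tail, were listed in the plate tables only. On GM the nuclear 18S rRNA had 13002 reads in the wild type and 17168 in the mutant, and on NaCl 13984 and 38521, which are ratios of 1.32 (1.29 to 1.35) and 2.75 (2.70 to 2.80). Small nuclear RNA had 137 and 271 reads on GM and 103 and 376 on NaCl, ratios of 1.97 (1.60 to 2.44) and 3.64 (2.92 to 4.58). For snoRNA the ratios were 1.51 (1.27 to 1.80) and 2.02 (1.66 to 2.46).

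Plastid reads followed the same order of conditions as the mitochondrial reads. The ratio of plastid shares, lsm8-1 to Col-0, was 0.741 (0.739 to 0.744) at 20 °C, 0.970 (0.966 to 0.974) at 4 °C, 1.84 (1.81 to 1.88) on GM and 4.05 (3.98 to 4.12) on NaCl. Mitochondrial reads formed 2.41% to 2.79% of all organelle reads in soil. On the plates they formed 27.6% in Col-0 and 42.1% in lsm8-1 on GM, and 31.0% and 35.5% on NaCl. Whether the composition of the RNA that entered the libraries, or differences between the harvested plants, took part in the mitochondrial values was not tested, and with 1 library in each group it cannot be told apart from genotype.

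Markers of organ makeup were read beside the same libraries. The summed level of the 8 root markers was 7621 CPM in Col-0 and 4529 in lsm8-1 on GM, and 3022 and 2164 on NaCl, against 42.4 to 109.7 in soil. The 5 leaf markers summed to 6235 and 8465 CPM on GM and to 4543 and 4346 on NaCl. These sums rest on the most abundant markers. Marker by marker, 1 of the 8 root markers was higher in lsm8-1 on GM and 6 of 8 were on NaCl, with median ratios of 0.809 and 1.19, and of the 5 leaf markers 5 were higher on GM and 3 on NaCl, with medians of 1.38 and 1.19. The part of organ makeup in the mitochondrial values was not tested.

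**Figure D2:**
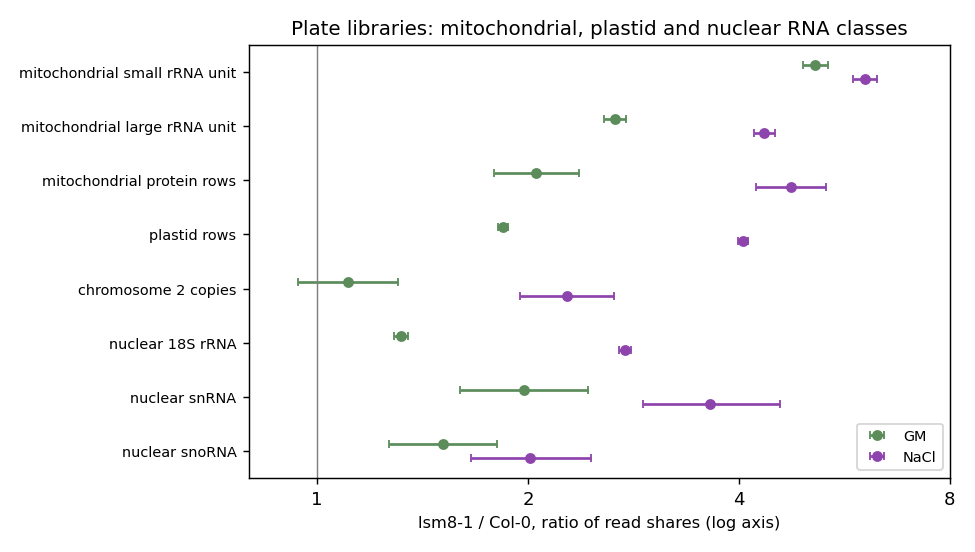
Ratio of read shares, lsm8-1 to Col-0 (log axis), in the plate libraries on GM and on NaCl, for mitochondrial, plastid and nuclear RNA classes, with exact 95% counting intervals. The ratio is larger on NaCl than on GM for every class drawn, and the mitochondrial small rRNA unit has the highest ratio on both media (5.14 and 6.05).

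Protein genes were first compared as a class. The 21 protein loci (Col-0, then lsm8-1) had 1985 and 1477 reads at 20 °C and 1366 and 1266 at 4 °C, then 309 and 637 on GM and 363 and 1725 on NaCl. As a class their ratio between mutant and wild type was 0.717 (0.669 to 0.767), 0.926 (0.858 to 1.00), 2.05 (1.79 to 2.36) and 4.74 (4.23 to 5.33) in that order. On GM the class ratio of the protein loci lay below that of the rRNA loci, 3.68 (3.58 to 3.78), and on NaCl the intervals of the protein loci and the rRNA loci, at 5.07 (4.94 to 5.20), overlapped. The class value on NaCl rests mostly on ribosomal proteins, with 1185 of the 1725 mutant reads and a ratio of 6.92 (5.89 to 8.17). Complex I (4.23) and cytochrome c maturation (5.24, from 4 and 21 reads) had intervals that overlap that of the rRNA loci. ATP synthase, at 2.13 (1.55 to 2.97), and complex IV, at 1.88 (1.38 to 2.57), lay below it.

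Single protein loci were counted by whether the counting interval of their ratio left out 1, over all 21 and with no filter on reads. On NaCl 14 of 21 had intervals above 1 and none below, where 18.9% of all 26547 loci were above and 32.7% below. On GM 4 were above 1 and none below, where 14.8% of all loci were above and 32.7% below. In soil at 20 °C none was above and 9 were below, where 33.3% of all loci were above and 12.7% below. At 4 °C 3 were above and 4 below, against 27.5% and 18.1% of all loci. This count treats the libraries as the only source of error, many loci meet it in any pair of libraries, and a locus with few reads can hardly meet it.

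Of the proteins of the mitochondrial ribosome, rps3 (ATMG00090) and rpl16 (ATMG00080) had more reads in lsm8-1 than in Col-0 on both media. rps3 encodes protein S3 of the small subunit and had 381 and 221 reads at 20 °C (Col-0, then lsm8-1) and 271 and 176 at 4 °C, then 107 and 255 on GM and 122 and 884 on NaCl. rpl16 encodes protein L16 of the large subunit and had 173 and 99, 120 and 84, 25 and 102, and 44 and 296 reads in the same order. For both genes the mutant was the lower library in soil and the higher on plates.

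For rps3 the mutant-to-wild-type ratio was 0.559 (0.471 to 0.661) at 20 °C and 0.649 (0.534 to 0.788) at 4 °C, then 2.38 (1.89 to 3.01) on GM and 7.23 (5.98 to 8.81) on NaCl. For rpl16 it was 0.551 (0.426 to 0.709), 0.6997 (0.523 to 0.932), 4.07 (2.61 to 6.58) and 6.71 (4.88 to 9.44). In RefSeq rps3 and rpl16 overlap by 134 bases on the same strand, so that reads there may belong to either, and nad9 follows 840 bases further on the same strand. The third ribosomal protein gene listed, rpl2 (ATMG00560), stayed at 17 reads or fewer in each library.

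**Figure D3:**
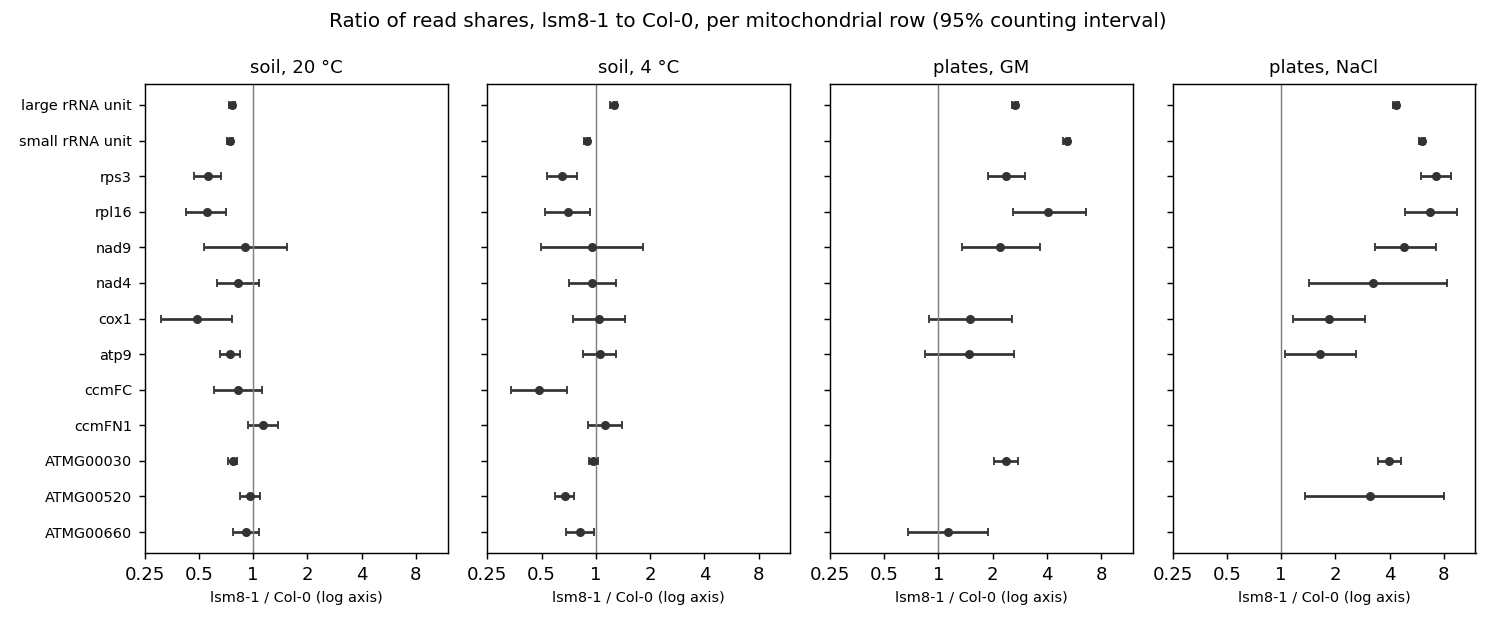
Ratio of read shares, lsm8-1 to Col-0 (log axis), in the 4 conditions for the rRNA units, the protein loci with 100 reads or more in some library and 3 other reading frames, plus cox1 for reference, with exact 95% counting intervals. A point is drawn where a library of the pair had 20 reads or more, and on NaCl every point lies to the right of 1. This partly restates the floor. On NaCl nad4 (8 and 26 reads, Col-0 then lsm8-1) and ATMG00520 (8 and 25) are drawn only through lsm8-1. ATMG00660 (16 and 14), ccmFC and ccmFN1 are not drawn there.

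Among the subunits of complex I, the NADH dehydrogenase, nad9 (ATMG00070) followed its neighbour rpl16 on the plates. It had 32 and 30 reads at 20 °C and 22 and 21 at 4 °C, then 25 and 55 on GM and 33 and 160 on NaCl (Col-0, then lsm8-1). The ratio was 2.19 (1.34 to 3.67) on GM and 4.84 (3.31 to 7.27) on NaCl, and near 1 in soil with intervals that include 1. nad4 (ATMG00580), of which no 50-base word is unique, had 126 and 108 reads at 20 °C and at most 26 on the plates. nad7 (ATMG00510) had 75 and 46 reads at 20 °C and 28 and 53 at 4 °C, ratios of 0.591 (0.400 to 0.864) and 1.89 (1.18 to 3.11), then 13 and 18 on GM and 6 and 35 on NaCl, ratios of 1.38 (0.639 to 3.06) and 5.82 (2.42 to 16.9). ATMG00060, a part of nad5, had 14 and 20 reads at 20 °C and 8 and 45 at 4 °C, where the ratio was 5.62 (2.62 to 13.8). On the plates it had 9 and 3 reads on GM and 10 and 28 on NaCl, ratios of 0.332 (0.0579 to 1.33) and 2.79 (1.32 to 6.45).

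The 7 loci of complex I together gave ratios of 0.747 (0.628 to 0.888), 1.44 (1.21 to 1.72), 1.86 (1.34 to 2.60) and 4.23 (3.21 to 5.64), and so were the only group of protein loci with an interval above 1 at 4 °C.

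The loci of complex IV, the cytochrome c oxidase, together gave ratios of 0.645 (0.475 to 0.872) at 20 °C, 0.811 (0.636 to 1.03) at 4 °C, 1.59 (1.12 to 2.27) on GM and 1.88 (1.38 to 2.57) on NaCl. cox1 (ATMG01360), its catalytic subunit, had 61 and 31 reads at 20 °C and 74 and 77 at 4 °C, then 26 and 39 on GM and 31 and 57 on NaCl. The mutant library was the lower at 20 °C (ratio 0.489, 0.307 to 0.766) and the higher on NaCl (1.84, 1.17 to 2.94). Both rps3 and cox1 consist mostly of unique words. Set against each other within a library, rps3 had 4.12 reads for each read of cox1 in Col-0 and 6.54 in lsm8-1 on GM, then 3.94 and 15.5 on NaCl.

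Of the ATP synthase genes, atp9 (ATMG01080), the ring subunit c, had the most reads. It had 554 and 426 reads at 20 °C and 178 and 187 at 4 °C, then 23 and 34 on GM and 34 and 56 on NaCl. Per length it was the highest of the 21 protein loci in each soil library, at 24.9 and 18.4 RPKM (computed here from the counts, the lengths and the library totals) at 20 °C, where rpl16 was at 7.25 and 4.00. Its genotype ratio was 0.740 (0.651 to 0.842) at 20 °C, 1.05 (0.851 to 1.30) at 4 °C, 1.47 (0.843 to 2.62) on GM and 1.64 (1.06 to 2.60) on NaCl. In RefSeq the coding sequence of atp9 has 225 bases, and none of its 50-base words is unique. ATMG01080 is 504 bases long and was named by a RefSeq note, not by length. The rest of the locus was not checked for unique words, so where its reads lie is not known here.

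Of the genes of cytochrome c maturation, which attach heme to c-type cytochromes, ccmFN1 and ccmFC were seen in soil and hardly on plates. ccmFN1 (ATMG00830) had 202 and 239 reads at 20 °C and 169 and 190 at 4 °C, against 0, 4, 1 and 0 on the plates (Col-0 and lsm8-1 on GM, then on NaCl). ccmFC (ATMG00180) had 96, 82, 101 and 49 reads in soil and at most 2 on the plates. Both have fewer than 10% unique words, and ccmB (ATMG00110), whose words are all unique, had 48, 27, 28 and 31 reads in soil and 13, 13, 3 and 13 on the plates. ccmFN2 (ATMG00960) had 4, 2, 1 and 1 reads in soil and 0, 1, 0 and 6 on the plates. How reads of copied genes were placed in each experiment is not known from the sources used here.

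The reads of the 21 protein loci were shared differently among the roles in lsm8-1 on plates. Ribosomal proteins took 43.4% of them in Col-0 and 56.0% in lsm8-1 on GM, and 47.1% and 68.7% on NaCl. In soil they took 28.8% and 22.1% at 20 °C and 28.9% and 21.01% at 4 °C. The share of the mutant was thus the larger on plates and the smaller in soil. rps3 alone took 34.6% and 40.0% of the protein reads on GM and 33.6% and 51.2% on NaCl, with Wilson intervals on NaCl of 28.9% to 38.6% and 48.9% to 53.6%. Per kilobase, which lowers the share of this long gene, it took 18.5% and 21.5% on GM and 16.9% and 28.6% on NaCl.

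**Figure D4:**
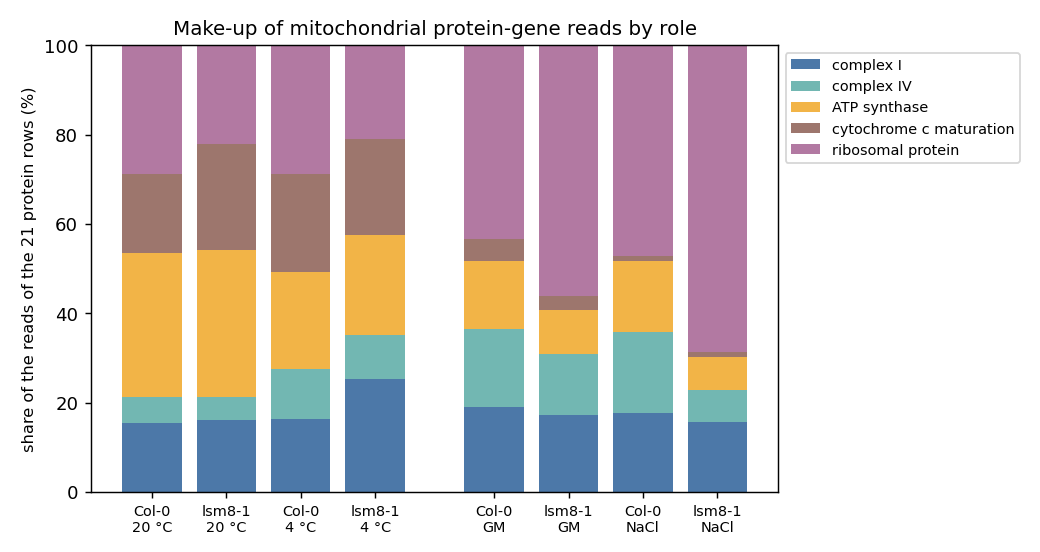
Share of the reads of the 21 protein loci by role in each of the 8 libraries, in percent of raw reads, with no error bars because each bar is 1 library. Ribosomal proteins take 68.7% in lsm8-1 on NaCl and 21.01% to 28.9% in the soil libraries.

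Of the other reading frames, ATMG00030 had most reads. It had 3213 and 2563 reads at 20 °C and 2408 and 2336 at 4 °C, then 238 and 566 on GM and 225 and 897 on NaCl. Its genotype ratio was 0.768 (0.729 to 0.809), 0.970 (0.916 to 1.03), 2.37 (2.03 to 2.77) and 3.98 (3.43 to 4.63). These ratios followed those of the large rRNA unit on the plates, where ATMG00030 held 5.92%, 5.27%, 5.56% and 5.09% as many reads as that unit. In soil it held 62.2% to 80.5% as many. RefSeq notes 4 reading frames of its 324 bases, and 1 of them overlaps rrn26 by 185 bases on the other strand, but length alone does not tell which is ATMG00030. The sources do not say whether the libraries are stranded, so that reads of an overlapping gene cannot be told apart.

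Without ATMG00030 the other 54 reading frames held 179 and 161 reads on GM, a ratio of 0.897 (0.720 to 1.12), and 121 and 237 on NaCl, a ratio of 1.95 (1.56 to 2.45). ATMG00520 had 466 and 463 reads at 20 °C, 669 and 451 at 4 °C, and 4, 8, 8 and 25 on the plates. ATMG00660, whose length matches the single reading frame ORF149 of RefSeq, had 282, 267, 272 and 222 reads in soil and 31, 35, 16 and 14 on the plates. For ATMG00660 the interval of the genotype ratio left out 1 at 4 °C only (0.816, 0.680 to 0.978). ATMG01000, whose length matches ORF114, had 10 to 14 reads in each soil library, but 5 and 34 on GM and 10 and 41 on NaCl, ratios of 6.78 (2.64 to 22.2) and 4.09 (2.02 to 9.16). Some of the 55 have a likely product that was not assigned here. A RefSeq note names the nuclear copy of ATMG01090 after ATP synthase subunit 9, and ATMG00270 and ATMG01260 both have the length of nad6, 618 bases. The RefSeq genes matR (1971 bases) and mttB (843 bases) had no locus of equal length, so their loci may also be among the 55. Of the 55, ATMG00520, at 2019 bases, is the nearest in length to matR. ATMG01090 had 30, 4, 18 and 22 reads in soil and 8, 2, 12 and 4 on the plates, and the nad6-length loci had at most 14 in any library.

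Loci on chromosome 2 that RefSeq notes as copies of mitochondrial genes, 30 in all, were read as a comparison. They had 902 and 652 reads at 20 °C and 782 and 755 at 4 °C, then 282 and 313 on GM and 238 and 542 on NaCl. Their genotype ratio was 0.696 (0.628 to 0.771), 0.965 (0.872 to 1.07), 1.11 (0.939 to 1.30) and 2.27 (1.95 to 2.66). On both media their interval lies below that of the mitochondrial protein loci as a class, and in both soil conditions the intervals overlap. By role, it lay below those of ribosomal proteins and complex I on both media. It overlapped those of ATP synthase, complex IV and cytochrome c maturation on both. The sets are unlike, since rps3, with most of the ribosomal protein reads, consists mostly of unique words.

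After cold the mitochondrial share was lower in Col-0 and higher in lsm8-1. The ratio of 4 °C to 20 °C was 0.843 (0.824 to 0.863) in Col-0 and 1.09 (1.06 to 1.11) in lsm8-1. The large rRNA unit had a cold ratio of 0.631 (0.602 to 0.661) in Col-0 and 1.04 (0.991 to 1.09) in lsm8-1, and the small unit 1.12 (1.08 to 1.17) and 1.35 (1.29 to 1.41). For the protein loci it was 0.663 (0.618 to 0.710) and 0.857 (0.794 to 0.924), below 1 in both genotypes. Of the 21 protein loci, 2 had a cold interval above 1 and 9 below in Col-0, where 31.6% of all loci were above and 25.9% below. In lsm8-1 it was 6 and 4 of 21, against 29.0% and 29.5% of all loci.

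The direction in lsm8-1 depended on the rRNA loci, since without them the ratio was 0.918 (0.882 to 0.955). Of the loci with 100 reads or more, atp9 had the cold ratio furthest from 1, in the same direction in both genotypes. From 20 °C to 4 °C its reads went from 554 to 178 in Col-0 and from 426 to 187 in lsm8-1, ratios of 0.309 (0.260 to 0.367) and 0.439 (0.368 to 0.522). atp9 held 27.9% of the protein reads at 20 °C and 13.0% at 4 °C in Col-0, and 28.8% and 14.8% in lsm8-1. cox1 had cold ratios of 1.17 (0.821 to 1.67) in Col-0 and 2.48 (1.62 to 3.90) in lsm8-1, and rps3 had 0.685 (0.584 to 0.803) and 0.796 (0.649 to 0.975), so that these genes did not share a direction. ATMG00520 had a cold ratio of 1.38 (1.23 to 1.56) in Col-0 and 0.974 (0.853 to 1.11) in lsm8-1.

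On NaCl the mitochondrial share of Col-0 stayed within counting error of that on GM, and that of lsm8-1 was higher. The ratio of NaCl to GM was 1.008 (0.976 to 1.04) in Col-0 and 1.43 (1.41 to 1.45) in lsm8-1. rRNA loci and protein loci had 1.013 (0.979 to 1.05) and 1.16 (0.992 to 1.35) in Col-0, and 1.39 (1.37 to 1.42) and 2.67 (2.44 to 2.93) in lsm8-1. In lsm8-1 the interval of the protein loci thus lay above that of the rRNA loci. By role this held for ribosomal proteins, at 3.27 (2.91 to 3.70), and complex I, at 2.43 (1.94 to 3.06). The intervals of ATP synthase, complex IV and cytochrome c maturation overlapped that of the rRNA loci. Of the 21 protein loci, 1 had a salt interval above 1 and 1 below in Col-0, where 31.2% of all loci were above and 28.1% below. In lsm8-1 it was 9 above and none below, against 32.0% and 26.6% of all loci.

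The salt ratio of lsm8-1 was 3.42 (2.97 to 3.95) for rps3, 2.86 (2.28 to 3.62) for rpl16 and 2.87 (2.10 to 3.97) for nad9. In Col-0 the same genes had 1.12 (0.859 to 1.47), 1.73 (1.04 to 2.96) and 1.30 (0.750 to 2.28). ATMG00660 was lower on NaCl in both genotypes, with ratios of 0.508 (0.260 to 0.958) in Col-0 and 0.395 (0.196 to 0.752) in lsm8-1. Whether the response differs between the genotypes has no test here, since there is no replicate of either genotype in either condition.

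**Figure D5:**
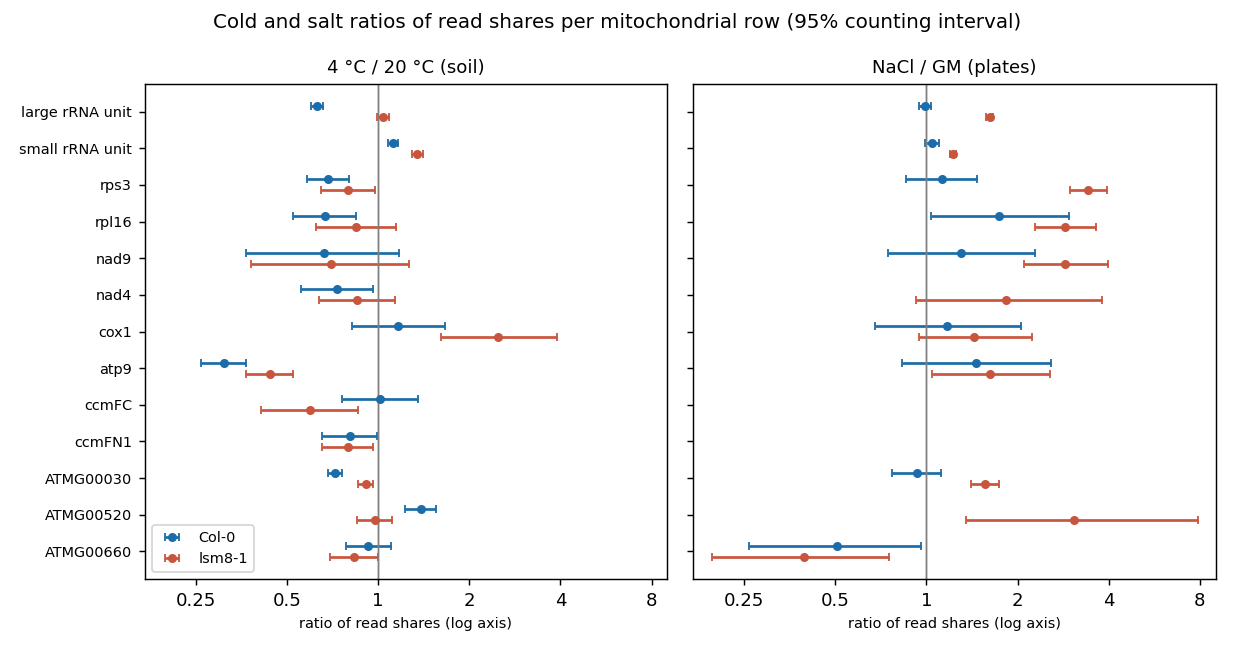
Ratio of read shares (log axis) after cold and after salt in Col-0 and lsm8-1, for the same loci as the plot of genotype ratios, with exact 95% counting intervals and points only where a library had 20 reads or more. The atp9 ratio in the cold lies furthest below 1 in both genotypes among the protein loci drawn (0.309 and 0.439).

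Between single libraries few mitochondrial loci reached 5 CPM in either library, the floor for a count of changes past 2-fold. With CPM scaled by TMM and 1 added before the log2, which shrinks the change of low genes, the number past 2-fold was 4 of 4 on GM (ATMG00020, ATMG01390, ATMG00030 and rps3), all higher in lsm8-1, where 1.56% of all genes were. On NaCl it was 5 of 5, the same loci and rpl16, all higher, where 2.81% of all genes were. At 20 °C none of 9 loci and at 4 °C none of 6 was past 2-fold, where 1.23% and 2.40% of all genes were in either direction. In the cold 1 of 9 loci in Col-0 and 1 of 8 in lsm8-1 was past 2-fold, atp9 in both, against 10.9% and 9.95% of all genes lower. With salt none of 3 loci was past 2-fold in Col-0 and 2 of 5 in lsm8-1, rps3 and rpl16, both higher, where 18.7% of all genes in Col-0 and 10.8% in lsm8-1 were past 2-fold in either direction and higher, respectively. Some of these loci reached the floor only through the library in which they were high, so the counts partly restate the floor: rps3 on GM, rps3 and rpl16 on NaCl, atp9 in the cold, and rpl16 with salt in lsm8-1.

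A fit over all 8 libraries gives an error at the price of one assumption. The quasi-likelihood model of edgeR had a coefficient for each of the 4 conditions and 1 for genotype, so that a response specific to 1 genotype counts as spread, and 22 of the 81 loci passed its filter of 1 CPM in at least 2 libraries. For genotype 2 of the 22 were called at a Benjamini-Hochberg adjusted p under 0.05, where 1.09% of all 20228 genes were, and 3 had an unadjusted p under 0.05. They were ATMG00020 (log2 change 1.89 ± 0.22 SE, adjusted p = 0.0338 by edgeR) and rrn18, ATMG01390 (2.62 ± 0.17, adjusted p = 0.00993 by edgeR). Since neither has an entry of its own in the soil tables, both calls rest on the plate libraries. ATMG00020 lost its call when any 1 of the 4 condition pairs was left out (adjusted p = 0.0593 to 0.0819 by edgeR), and rrn18 lost its call without the GM pair (adjusted p = 0.0532 by edgeR). With the rRNA loci joined into units that both experiments share, no mitochondrial locus was called for genotype (edgeR, 0 also at an unadjusted p under 0.05), and the large and small units were at 0.90 ± 0.42 (adjusted p = 0.301 by edgeR) and 1.12 ± 0.61 (adjusted p = 0.367 by edgeR). The median log2 change of the 22 loci for genotype was 0.30, against 0.02 over all genes. The filter shaped this median in part. nad9, atp4 and ATMG01000 passed it only through lsm8-1 libraries, and ATMG01170 only through Col-0 libraries. The median also includes ATMG00020 and ATMG01390, without reads in soil, and ATMG00010, without reads on the plates.

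Fitted within 1 experiment, the genotype effect on the small rRNA unit was negative in soil and positive on plates. For the large unit it was positive on plates and within its SE of no change in soil. Such a fit has 1 library for each genotype in each condition. Its error comes from the response specific to 1 genotype, which the model leaves out, moderated over all genes, and not from replicates. On the plates nad9, cox1 and ATMG01000 passed the filter only through the lsm8-1 libraries, and in soil ATMG01170 only through the Col-0 libraries. The loci tested were therefore partly chosen by the genotype in which they were high. In soil the large unit was at −0.14 ± 0.17 (adjusted p = 0.670 by edgeR) and the small unit at −0.40 ± 0.15 (adjusted p = 0.0917 by edgeR), and neither passed. On the plates the large unit was at 1.90 ± 0.18 (adjusted p = 0.0263 by edgeR) and the small unit at 2.61 ± 0.11 (adjusted p = 0.00586 by edgeR). rpl16 was called there too (2.55 ± 0.30, adjusted p = 0.0394 by edgeR), so that 3 of 9 tested loci were called higher, where 0.722% of all genes were. rps3 had 2.20 ± 0.41 on the plates and did not pass (adjusted p = 0.0844 by edgeR). In soil 2 of 17 loci were called lower, where 4.55% of all genes were: rps3 (−0.84 ± 0.20, adjusted p = 0.0101 by edgeR) and the reading frame ATMG00690 (−1.23 ± 0.34, adjusted p = 0.0290 by edgeR).

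For cold the 8-library fit called 1 of 22 loci, atp9, which fell (log2 change −1.57 ± 0.33, adjusted p = 0.00822 by edgeR), where 39.2% of all genes were called and 20.1% were called lower. ATMG00020 and ATMG01390 are among the 22 but have no reads in soil, so neither could be called for cold. In the soil libraries alone 4 of 17 were called, where 56.6% of all genes were, 28.8% higher and 27.7% lower. Beside atp9 (−1.49 ± 0.19) they were rps3 (−0.49 ± 0.20) and ATMG00030 (−0.35 ± 0.14), which were lower, and ATMG00513, a part of nad5 (1.09 ± 0.39), which was higher.

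For salt the same fit called 1 of 22, ATMG00660, which fell (−1.21 ± 0.33, adjusted p = 0.0280 by edgeR), where 30.3% of all genes were called and 15.1% were called lower. It has 14 to 35 reads in the plate libraries, and its call was lost without the 20 °C pair (adjusted p = 0.0566 by edgeR). In the plate libraries alone ATMG00660 was under the filter, and rpl16 was called among 9 loci (1.19 ± 0.30, adjusted p = 0.0310 by edgeR) as higher, where 18.3% of all genes were. The median log2 change of the 22 loci was −0.22 for cold and 0.32 for salt, against −0.03 and −0.00 over all genes. These medians include loci without reads in the experiment concerned, ATMG00020 and ATMG01390 for cold and ATMG00010 for salt.

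Nuclear genes of the same organelle were read from lists of known members. Of 25 nuclear genes for respiratory subunits, all tested, 1 rose with genotype, CYTC-2, a cytochrome c (0.65 ± 0.10, adjusted p = 0.0414 by edgeR). In the cold 4 rose and none fell: SDH1-1 and SDH2-1, subunits of complex II, at 1.27 ± 0.24 and 1.08 ± 0.18, and both cytochrome c genes, CYTC-2 at 0.83 ± 0.15 and CYTC-1 at 0.49 ± 0.13. With salt 2 rose, SDH1-1 (1.15 ± 0.24) and CYTC-2 (0.90 ± 0.15). These shares, 1 of 25, 4 of 25 and 2 of 25, stand against 0.756%, 19.0% and 15.2% of all genes called higher.

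Nuclear factors of mitochondrial RNA were higher in the cold. Of 13 listed, 9 rose and none fell, where 19.0% of all genes rose, and the list's median log2 change was 0.94 against −0.03 over all genes. The largest were PMH1, a DEAD-box RNA helicase, at 2.78 ± 0.21, mtPNPase, the exonuclease that degrades and trims mitochondrial RNA, at 2.44 ± 0.26, RPOTmp, an RNA polymerase of mitochondria and plastids, at 2.20 ± 0.18, RPOTm, the mitochondrial RNA polymerase, at 1.34 ± 0.16, and PMH2, a helicase akin to PMH1, at 1.23 ± 0.14. With genotype none of the 13 was called (edgeR; 5 at an unadjusted p under 0.05). With salt mtPNPase fell (−1.03 ± 0.25, adjusted p = 0.0178 by edgeR) and none rose. The mitochondrial loci themselves had 1 called lower and none higher in the cold in the same fit.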

How the data were processed

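Per the file headers, the authors' tables hold raw counts of uniquely placed reads, RPKM, feature length and coverage. Counts, coverage and lengths were used as deposited, and RPKM was recomputed. The genome build was TAIR10, per the submitters' processing notes; aligner and counting tool: not given in the sources used here. Soil tables are per gene and plate tables per transcript model, so ratios were taken within 1 experiment. Shares used the library total (33.4 to 45.9 M reads), with Wilson or exact 95% intervals for counting error, from scipy 1.17.1. Fits used edgeR 4.0.16 in R 4.3.3 (TMM scaling, 1 CPM in at least 2 libraries, Benjamini-Hochberg threshold 0.05), tested on simulated data, with DESeq2 1.42.0 as an alternative. Names come from RefSeq TAIR10.1 by matching length or by notes. The named loci are those of known product with 100 reads or more, the rRNA genes, the 3 other reading frames with the highest summed reads per kb, each called locus and the extremes of each ratio. cox1, ccmB and others with fewer reads were named after their values were seen. Members and lists were chosen with earlier results of these data known. Each p-value measures the spread between single libraries, not between replicates of a group.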

Additional observations from a re-analysis of the deposited data

Results flagged for a closer look

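Ratios of lsm8-1 to Col-0 that lay below 1 in soil and above 1 on plates stand out, although the difference between the experiments was not tested. For all mitochondrial loci they were 0.752 at 20 °C and 0.969 at 4 °C, against 3.51 on GM and 4.97 on NaCl. For the small rRNA unit they were 0.741 and 0.891 in soil, against 5.14 and 6.05 on plates. For rpl16 they were 0.551 and 0.7, against 4.07 and 6.71, and for rps3 0.559 and 0.649, against 2.38 and 7.23. The cold ratio of the mitochondrial share also pointed apart, at 0.843 in Col-0 and 1.09 in lsm8-1, and this difference was not tested either. Soil and plates differ in organ makeup, medium and the way the tables were counted, which cannot be told apart here.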

How the results depend on the processing

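No paired analysis was possible because each group has 1 library and the labels give no replicate numbers; the genotype pairs of the sign-flip test share a condition only. The mean log2 ratio of shares over the 4 pairs kept its sign under each alternative run, at 0.45 to 1.36 when 1 pair was left out. With TMM-scaled totals the genotype ratios were 0.704, 0.942, 3.84 and 5.43 (20 °C, 4 °C, GM, NaCl), and the cold and salt ratios 0.777 and 0.975 in Col-0 and 1.04 and 1.38 in lsm8-1. With protein loci alone the same ratios were 0.717, 0.926, 2.05 and 4.74, then 0.663 and 1.16 in Col-0 and, in lsm8-1, 0.857, which turns the direction in the cold, and 2.67. Without the loci that carry rRNA, an alternative added after seeing the data, they were 0.895 at 4 °C, 1.87 on GM and 4.02 on NaCl, then 0.773 and 0.962 in Col-0 and 0.918, again turned, and 2.07 in lsm8-1. With nuclear loci of 1 model as the total, the cold ratio of Col-0 was 0.824. The count called for genotype went from 2 to 0 with the rRNA loci joined, and to between 0 and 1 when 1 pair was left out. The count for cold was 4 in the soil libraries alone, with or without joined rRNA loci. The count for salt was between 0 and 1 when 1 pair was left out. Per kilobase, the share of rps3 in the protein reads was 8.77%, 6.82%, 10.7% and 6.92% in soil and 18.5%, 21.5%, 16.9% and 28.6% on plates (Col-0, then lsm8-1, at 20 °C, 4 °C, GM and NaCl), since length enters by construction. For the other changes the cause was not tested. Counts of under 20 reads set the limit for most of the 81 loci.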
